A study of Drosophila melanogaster with 9 samples.

Results

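Pita is a zinc-finger architectural protein that binds a long DNA motif at gene starts and at chromatin boundaries, among them boundaries of the Bithorax complex. CP190 is a cofactor that several DNA-binding proteins, such as Pita, dCTCF and Su(Hw), bring to insulators and promoters, partly through its BTB domain. Described here are 3 places in the Drosophila melanogaster genome at which CP190 gave one of its strongest ChIP-seq peaks in embryos of 2 lines. One line expresses a tagged Pita without the CP190-binding regions, and the other a tagged wild-type Pita. They lie between genes near CG12730 on chromosome X, inside klar on chromosome 3L and inside bun on chromosome 2L.

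The Pita dCP1+2 line expressed 3xFLAG-tagged Pita without CP1, the short core bound by the CP190 BTB domain, and without CP2, a second CP190-interacting region, whereas the Pita wt line expressed full-length tagged Pita. Both transgenes were driven by the ubiquitous Ubi-p63E promoter from the same attP site on the third chromosome, and whether the embryos used for ChIP-seq also held endogenous Pita was not given in the sources used here. Chromatin of whole embryos collected for 12 h was precipitated with anti-FLAG and with anti-CP190, in 2 biological replicates per line. With 1 preimmune sample of Pita wt as the control for all of them, there were 9 samples. The study's methods give another age window than the labels. Anti-FLAG is directed at the tag and does not see untagged Pita. The study's methods mention non-specific FLAG binding, so a FLAG peak need not mark bound Pita. The authors merged the replicates, so there is 1 peak list per antibody and line, with 8429 peaks for CP190 in Pita dCP1+2, 6586 for CP190 in Pita wt, 7365 for FLAG in Pita dCP1+2 and 6901 for FLAG in Pita wt.

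A peak was counted for a site when its summit lay within 2000 bp of a fixed dm6 position, which is the CP190 summit in Pita wt. This gave 11 of 29281 peaks, 3 for CP190 in Pita dCP1+2, 3 for CP190 in Pita wt, 2 for FLAG in Pita dCP1+2 and 3 for FLAG in Pita wt. The sites were selected on these same lists for strong CP190 peaks present in both lines, so presence, rank, fold enrichment and width are given as a description and without a test. The fold enrichment of a peak is the authors' ratio of the ChIP signal over the preimmune sample, and rank 1 is the highest fold enrichment of a list. The 11 summits lay at most 66 bp from the 3 positions. With the replicates merged and the read depth unknown, differences between the lines have no replicate error.

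The sequences around the 3 CP190 summits are shown because the sites share little beyond short words, and those words are referred to later. Each line holds 300 bp of the plus strand of dm6, from 149 bp before to 150 bp after the CP190 summit of Pita wt. Capitals mark AGATGGC at the CG12730 site, AGAGGGC (as its reverse complement GCCCTCT) and AGGTGGCG at the klar site, and AGAGGGC and the repeated AAGCAGT (or its reverse complement ACTGCTT) at the bun site.
CG12730 site, chrX:5524557-5524856: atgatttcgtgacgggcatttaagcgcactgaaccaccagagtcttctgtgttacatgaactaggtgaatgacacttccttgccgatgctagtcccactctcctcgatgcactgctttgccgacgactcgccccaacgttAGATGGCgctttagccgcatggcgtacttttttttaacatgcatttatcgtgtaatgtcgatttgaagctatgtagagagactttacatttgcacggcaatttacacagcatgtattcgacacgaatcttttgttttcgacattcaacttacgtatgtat
klar site, chr3L:506031-506330: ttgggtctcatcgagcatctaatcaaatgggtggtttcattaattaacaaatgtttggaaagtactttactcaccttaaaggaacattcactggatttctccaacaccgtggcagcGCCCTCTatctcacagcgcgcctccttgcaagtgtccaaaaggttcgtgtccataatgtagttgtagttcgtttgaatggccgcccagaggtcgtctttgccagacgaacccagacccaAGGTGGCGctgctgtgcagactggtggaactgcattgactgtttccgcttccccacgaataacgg
bun site, chr2L:12520356-12520655: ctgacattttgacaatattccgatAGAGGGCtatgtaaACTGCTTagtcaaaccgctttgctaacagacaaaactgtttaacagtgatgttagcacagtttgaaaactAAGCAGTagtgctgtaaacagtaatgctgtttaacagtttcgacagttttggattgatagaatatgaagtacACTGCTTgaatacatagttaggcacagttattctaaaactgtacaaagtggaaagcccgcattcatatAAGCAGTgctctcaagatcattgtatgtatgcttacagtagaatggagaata

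The CG12730 site had the strongest CP190 peak of the mutant line. CP190 was enriched 12.8-fold in Pita dCP1+2, rank 1 of 8429, and 30.3-fold in Pita wt, rank 2 of 6586. In units of the median fold enrichment of each list these are 6.17 in Pita dCP1+2 and 14.6 in Pita wt. The −log10 p-values of the 2 peak sets that the reproducibility pipeline compared were 176 and 154 in Pita dCP1+2 and 603 and 585 in Pita wt. These sets may be subsamples of the pooled reads (pseudoreplicates) in place of the replicates, so they give no replicate spread. FLAG-Pita gave no peak within 2000 bp of the site in Pita dCP1+2, while in Pita wt it gave a peak of 3.99-fold, rank 64. The compared sets differed more for that FLAG peak, with −log10 p-values of 14.8 and 28.1.

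The position of this site was checked against the Ensembl annotation, release 115. The summit (chrX:5524706) is intergenic, and the nearest annotated transcription start is not that of CG12730 but that of snoRNA:Psi28S-3342 (FBgn0086667, X:5524302-5524465, minus strand), a small RNA that guides pseudouridylation of 28S ribosomal RNA, 241 bp away. CG12730 (FBgn0029771, X:5516608-5518771, plus strand) has its nearest start 7447 bp away and is the nearest protein-coding gene by start within 20 kb. The start of the snoRNA lay inside both CP190 peaks, which covered 5524423 to 5524891 in Pita dCP1+2 and 5524320 to 5524902 in Pita wt. The FLAG peak of Pita wt, 5524538 to 5524856, did not reach it.

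The klar site lies in a coding exon. klar (FBgn0001316, 3L:434083-540614, minus strand) encodes a KASH-domain protein that links nuclei and lipid droplets with microtubule motors. The summit (chr3L:506180) falls in an exon of 252 bp, 506105 to 506356, found in 4 of its 9 transcripts, and is 15357 bp from the nearest start of klar. The nearest start of any gene, that of lncRNA:CR46002, is 3117 bp away. CP190 was enriched 4.38-fold in Pita dCP1+2, rank 15, and 14.9-fold in Pita wt, rank 11. FLAG was enriched 2.96-fold in Pita dCP1+2, rank 218, and 5.11-fold in Pita wt, rank 23. Of the 3 sites it had the strongest FLAG peak in either line. The −log10 p-values of the compared FLAG sets were 16.4 and 7.43 in Pita dCP1+2 and 45.4 and 40.0 in Pita wt, and those of the CP190 sets were 33.7 and 30.6 in Pita dCP1+2 and 266 and 222 in Pita wt.

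The bun site lies in an intron. bun (FBgn0259176, 2L:12455540-12546611, minus strand) encodes a leucine-zipper protein of the TSC-22 family that promotes growth. The summit (chr2L:12520505) is within 4 of the 10 transcripts and 15673 bp from the nearest start of the gene. CP190 was enriched 4.82-fold in Pita dCP1+2 and 14.6-fold in Pita wt, and its rank was 12 in both lists. FLAG was enriched 2.27-fold in Pita dCP1+2, rank 1749 of 7365, and 3.45-fold in Pita wt, rank 131 of 6901. The mutant FLAG peak stood at 1.13 times the median fold enrichment of its list, so it was close to an ordinary peak of that list, while CP190 at the same place stood at 2.33 times its own list median. The compared sets gave −log10 p-values of 35.5 and 39.9 for CP190 in Pita dCP1+2, against 217 and 192 in Pita wt. For FLAG they were 6.46 and 6.06 in Pita dCP1+2, against 16.6 and 14.8 in Pita wt.

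**Figure D1:**
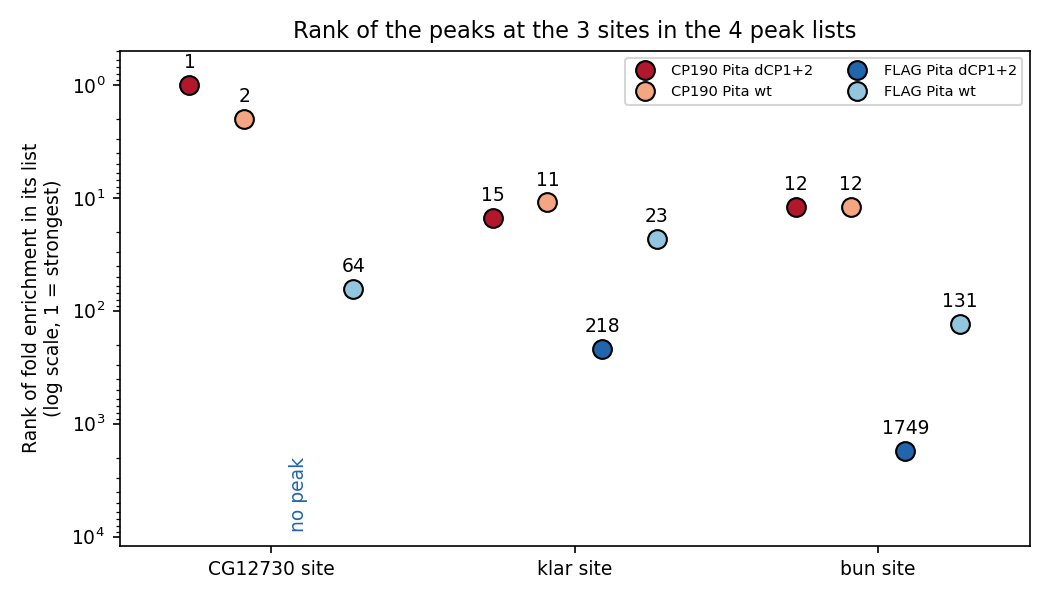
Rank of the fold enrichment (log axis, rank 1 on top) of the peak at each site in the 4 lists, one point per list. The CP190 points lie between ranks 1 and 15 in both lines, while the FLAG points of Pita dCP1+2 lie lower than those of Pita wt at klar (218 against 23) and bun (1749 against 131) and no FLAG peak was found at the CG12730 site in Pita dCP1+2.

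**Figure D2:**
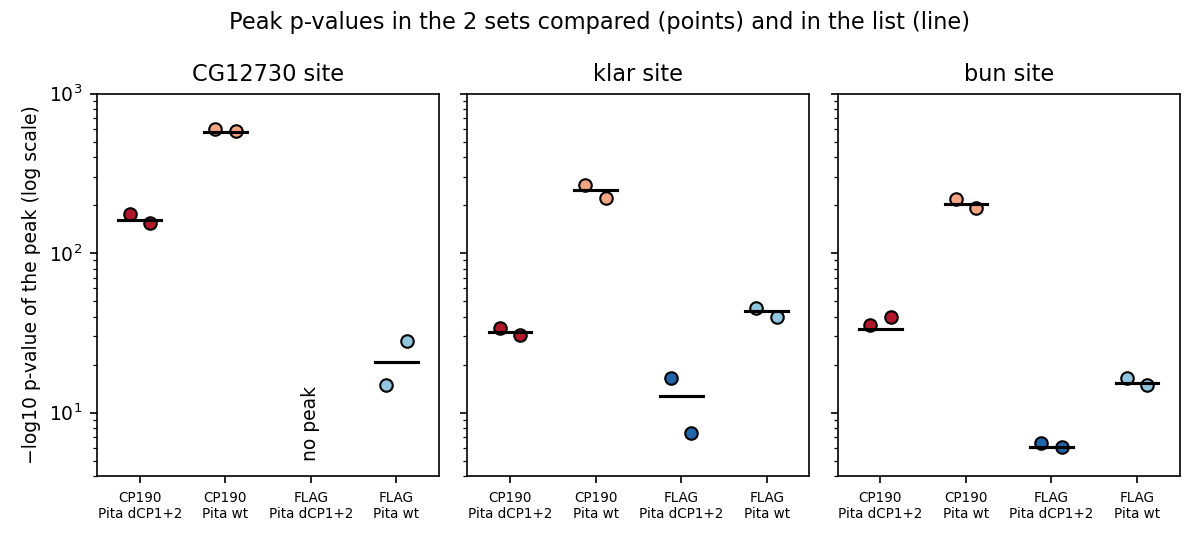
The −log10 p-value (log axis) of the peak at each site in the 2 sets compared by the reproducibility pipeline (points), which may be pseudoreplicates, and in the deposited list (lines), by antibody and line. The points of Pita dCP1+2 lie below those of Pita wt wherever both lines have a peak, for example at 176 and 154 against 603 and 585 for CP190 at the CG12730 site.

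The rank of CP190 thus moved little between the lines, and its fold enrichment moved more. As a percent of the list length, the rank in Pita dCP1+2 minus that in Pita wt was -0.0185 percentage points at CG12730, 0.0109 at klar and -0.0398 at bun. For FLAG the same difference was 2.63 percentage points at klar and 21.8 at bun. With ranks by −log10 p-value these became 4.93 and 37.4, and on the assembled chromosome arms alone the CP190 difference at klar turned to -0.0366. The ratio of the CP190 fold enrichment in Pita dCP1+2 over that in Pita wt was 0.421 at CG12730, 0.294 at klar and 0.329 at bun. Over all 4946 CP190 peaks shared between the lines the median ratio was 1.05, with percentiles 10 and 90 at 0.896 and 1.22. A ratio of 0.5 or less was found in 0.728% of shared peaks and at all 3 sites. It was also found in 35 of the 39 shared peaks among the 100 strongest of Pita wt, sites included. All 14 shared peaks among the 20 strongest had it, so it was common to strong peaks. For FLAG the ratio was 0.580 at klar and 0.659 at bun, against a median of 0.958 over 4938 shared peaks. Over the 130 shared FLAG peaks ranked up to 150 in Pita wt the median was 0.743 and percentile 10 was 0.540, so both sites lay within the spread of strong FLAG peaks. The rule chose the sites on these contrasts, so these shares are given only to place them.

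Peaks of like rank in Pita wt are the nearer comparison, though they too were picked by their value in Pita wt. Of the 100 strongest CP190 peaks of Pita wt, 39 (39%, exact 95% interval 29.4 to 49.3%, counting error only) had a CP190 peak in Pita dCP1+2, against 75.1% of all CP190 peaks of Pita wt. The median ratio of fold enrichment of these 39, the 3 sites included, was 0.294. That median is the value of the klar site itself, and the bun and CG12730 sites stood above it. Among the 20 strongest, 14 were kept, and in the order of their ratios from the highest the CG12730 site had place 1, bun place 3 and klar place 4. Place 2 was held by the peak nearest Tet (0.361), a gene of the TET dioxygenase family. The strongest CP190 peak of Pita wt, nearest Atg8a, a ubiquitin-like autophagy gene, kept rank 9 in Pita dCP1+2 with a ratio of 0.103. The peak ranked next below the CG12730 site, nearest the kinase gene Tlk, had rank 205 in Pita dCP1+2 and rank 3 in Pita wt. The peak ranked next below bun in Pita wt, nearest CG6465, had no CP190 peak in Pita dCP1+2.

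**Figure D3:**
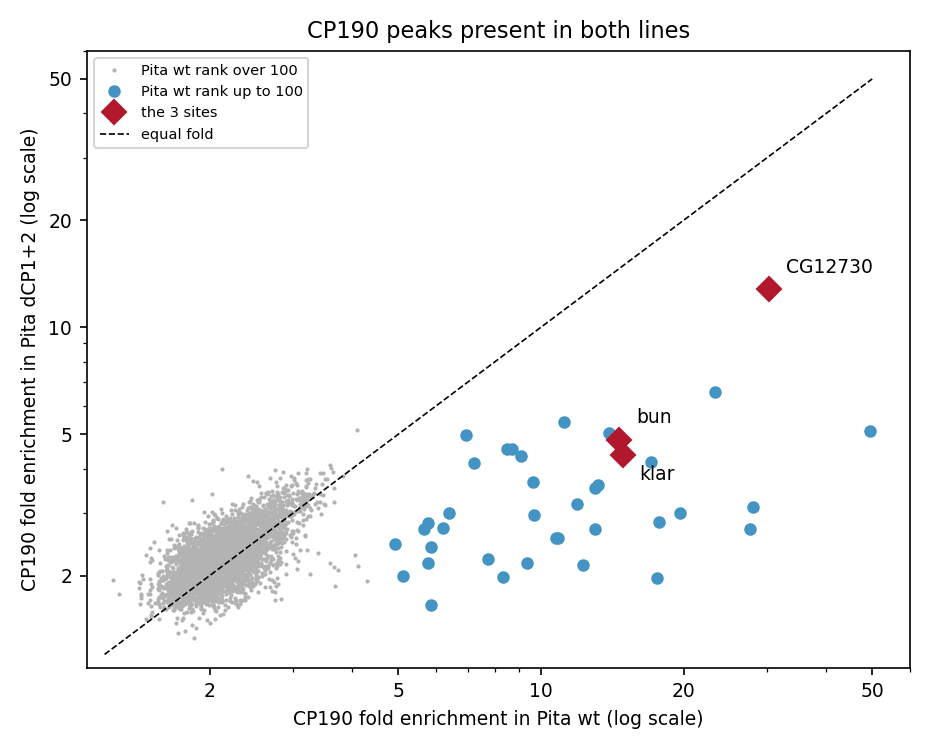
CP190 fold enrichment in Pita dCP1+2 (vertical log axis) and in Pita wt (horizontal log axis) for the 4946 shared CP190 peaks, with the 39 shared peaks among the 100 strongest of Pita wt in blue, the 3 sites in red and a dashed line at equal values. The 3 sites lie below the line, and the CG12730 site has the highest value of all on the vertical axis, 12.8 in Pita dCP1+2 against 30.3 in Pita wt.

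The Pita dCP1+2 list has few peaks of that height. After the CG12730 site, ranks 2, 3, 5 and 6 were on unassembled scaffolds, and the next peak on a chromosome arm was at the start of TER94, a gene for an AAA ATPase, with 6.55-fold in Pita dCP1+2 and 23.3-fold in Pita wt. The highest fold enrichment in the whole CP190 list was thus 12.8 in Pita dCP1+2, and it was 49.4 in Pita wt. The list medians were 2.07 in both lines.

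CP190 peaks at the sites were narrower in the mutant line. The width was 469 bp in Pita dCP1+2 and 583 bp in Pita wt at CG12730, 492 bp in Pita dCP1+2 and 797 bp in Pita wt at klar, and 439 bp in Pita dCP1+2 and 1070 bp in Pita wt at bun. At bun the right edge differed by -536 bp and the left edge by 95 bp (Pita dCP1+2 minus Pita wt), so most of the difference was on the right. The FLAG peaks were 443 bp wide in Pita dCP1+2 and 526 bp in Pita wt at klar, and 229 bp in Pita dCP1+2 and 377 bp in Pita wt at bun. All 3 CP190 and both FLAG pairs were narrower in Pita dCP1+2, while 35.8% of shared CP190 peaks and 44.6% of shared FLAG peaks were. Of the 39 shared peaks among the 100 strongest, 38 were narrower. The part of the lower fold enrichment in the narrower widths was not tested.

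The CP190 summits of the lines were 13 bp apart at CG12730, 7 bp at klar and 66 bp at bun, compared with a median of 28 bp over all shared CP190 peaks, 17 bp over the 39 among the 100 strongest and 10 bp over the 14 among the 20 strongest. The distance at bun was above all 3 medians and that at klar below them, while that at CG12730 was above the last. All summits of a site lay within 23 bp at CG12730, 17 bp at klar and 97 bp at bun. Each FLAG peak lay wholly within the CP190 peak of its own line. The stretch covered by all peaks of a site was 319 bp at CG12730, 443 bp at klar and 229 bp at bun.

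**Figure D4:**
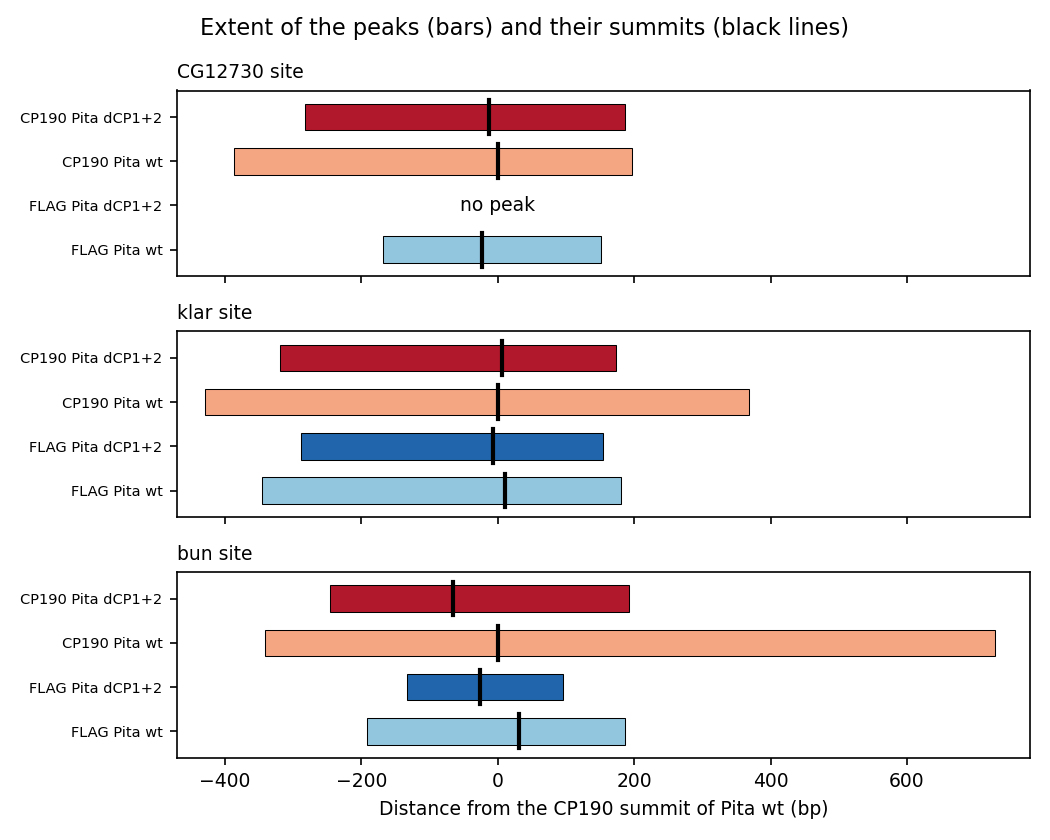
Extent of each peak (bars) and its summit (black lines) as distance in bp from the CP190 summit of Pita wt, with 1 row per list. At all 3 sites the CP190 bar of Pita dCP1+2 lies within that of Pita wt, most clearly at bun, with 439 bp against 1070 bp.

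Peaks in all 4 lists were found at klar and bun, 2 of the 3 sites, and at 52.1% of all CP190 peaks of Pita wt. FLAG was kept at the same 2 sites of 3, and 71.6% of all FLAG peaks of Pita wt had one in Pita dCP1+2. Among the 20 strongest CP190 peaks of Pita wt, 4 had the pattern of the CG12730 site, itself included. In that pattern CP190 has a peak in both lines, and FLAG has one in Pita wt and none in Pita dCP1+2. The same pattern was found in 10 of the 100 strongest and in 438 of all 6586 CP190 peaks of Pita wt. By the distance between log10 ranks, the locus most like CG12730, over its 3 ranks and among 437 others without a FLAG peak in the mutant, was the start of N, which encodes the receptor Notch (CP190 rank 17 in Pita dCP1+2 and 10 in Pita wt, FLAG rank 93 in Pita wt), at a distance of 1.42. The next were the peaks nearest CG10481 (2.09) and CG9380 (2.50). For bun, over 4 ranks and among 3428 loci, it was the peak nearest Tet, at a distance of 0.279, with CP190 ranks of 10 in Pita dCP1+2 and 15 in Pita wt and FLAG ranks of 1853 in Pita dCP1+2 and 74 in Pita wt. Snx27 (0.753) and Cib2 (0.798) followed. For klar the nearest were Cib2 (0.963), Tet (1.08) and TER94 (1.12).

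The surroundings of the sites differed. Another place to the right, with summits 5087 to 5222 bp away, had a peak in all 4 lists near the CG12730 site, at which CP190 was enriched 3.11-fold in Pita dCP1+2 and 2.84-fold in Pita wt and FLAG 2.96-fold in Pita dCP1+2 and 3.19-fold in Pita wt. The ratio of the lines there was 1.09 for CP190 and 0.927 for FLAG, unlike the 0.421 for CP190 at the site itself. To the left, 6940 bp away, FLAG had a peak of 2.05-fold (rank 3407) in Pita dCP1+2 and none in Pita wt. No other peak lay within 20 kb of the klar site in any list. The other klar peaks, 3 for CP190 in Pita dCP1+2, 4 for CP190 in Pita wt and 3 for FLAG in each line, all lay at least 53301 bp away, and the best of them ranked 2008, for FLAG in Pita wt. In bun, the other peaks numbered 3 for CP190 in Pita dCP1+2, 4 for CP190 in Pita wt, 4 for FLAG in Pita dCP1+2 and 5 for FLAG in Pita wt. Of these, a place to the left, 3827 to 3879 bp away, had FLAG peaks of 2.47-fold in Pita dCP1+2 and 2.45-fold in Pita wt, but a CP190 peak in Pita wt only, of 2.37-fold. These were the peaks nearest outside the 2000 bp limit at CG12730 and bun, except that the nearest CP190 peak of Pita dCP1+2 in bun was 16188 bp away, while the nearest at klar were at least 35405 bp away and outside the gene. To the right in bun, 16188 to 16763 bp away, CP190 was enriched 1.64-fold in Pita dCP1+2 (rank 8168) and 2.75-fold in Pita wt (rank 507). FLAG there was enriched 2.17-fold in Pita dCP1+2 and 2.69-fold in Pita wt. Farther right, 18197 to 18224 bp away, CP190 was enriched 2.59-fold in Pita dCP1+2 and 2.56-fold in Pita wt.

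**Figure D5:**
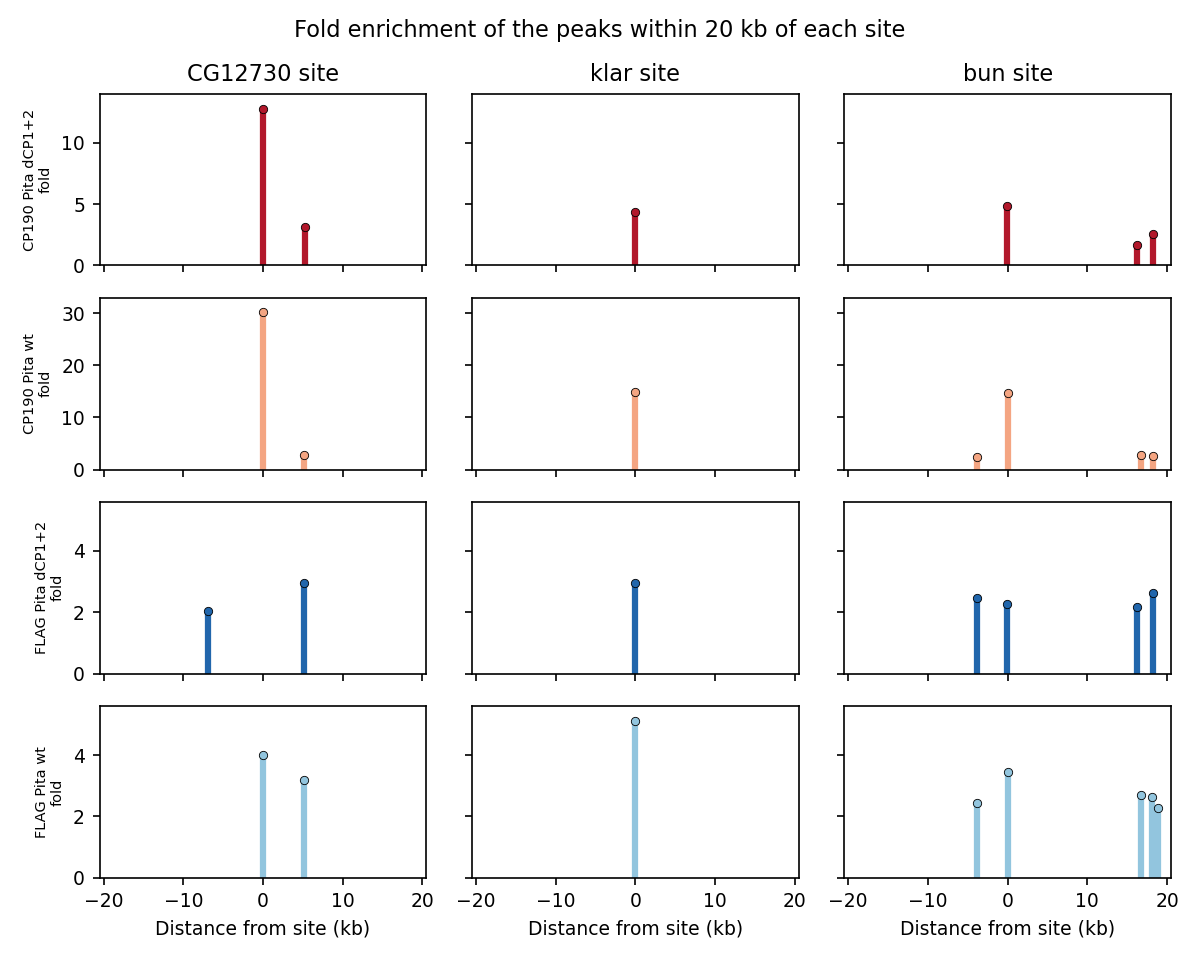
Fold enrichment of every peak (vertical lines with points) within 20 kb of each site, by list from top to bottom, with a separate vertical scale for each CP190 list and the same scale for both FLAG lists. The klar peaks stand alone, the CG12730 site has a neighbour to the right in all 4 lists, and the CP190 peak to the left of bun appears in Pita wt and not in Pita dCP1+2.

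The sequence within 250 bp of the CP190 summit of Pita wt was not used in choosing the sites. The Pita matrix, with 21 positions, had a match at p below 0.0001 only at klar, on the minus strand at chr3L:506187-506207, where ctacattatggacacgaacct had a match p-value of 8.14e-05 under equal base frequencies. The best words at CG12730 (0.000502) and bun (0.000761) did not pass. Of 6568 CP190 windows of Pita wt on the assembled chromosomes 13.8% had a match, and among the 100 strongest 76 had one. The 3 sites thus had fewer and weaker matches than most of the strongest peaks, and at p below 1e-05 they had 0 where 62 of the 100 strongest had one. Of the 97 strongest without the 3 sites, a match was found in 22 of 36 kept in Pita dCP1+2 (61.1%, exact 95% interval 43.5 to 76.9%) and in 53 of 61 lost (86.9%, interval 75.8 to 94.2%). At p below 1e-05, with the 3 sites left in, 20 of 39 kept and 42 of 61 lost had a match. At p below 1e-06 the order turned, with 14 of 36 kept (38.9%, interval 23.1 to 56.5%) and 21 of 61 lost (34.4%, interval 22.7 to 47.7%). The intervals of kept and lost overlap at p below 0.0001, narrowly, and at p below 1e-06. Windows are not replicates, and no test was made. Whether intervals overlap, here or for the words below, thus shows neither a difference between kept and lost nor its absence.

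The letters of other factors were searched as exact words on both strands. The dCTCF word AGGTGGCG was found at klar, 90 bp from the summit, and in 4.90% of all windows. CGATA, the core of BEAF-32 sites, was found at CG12730 and bun and in 40.1% of all windows, and GAGAG, the core of GAGA factor sites, was found at all 3 sites and in 47.5% of windows. The DREF word TATCGATA, which contains the BEAF-32 core, was at none of the sites and in 0.883% of windows. The Su(Hw) word TGCATAC was also at none of the sites and in 3.58% of windows, as was the M1BP word GGTCACACT, which was in 0.959%. Seeing the sequences, words like the start of the dCTCF word were then searched, namely AGAGGGC or AGATGGC or AGGGGGC or AGGTGGC. At least 1 of these 4 words was at each site, 6 bp from the summit at CG12730, 30 and 89 bp at klar and 122 bp at bun, and in 29.8% of all windows. With GC after the word (AGAGGGCGC, AGATGGCGC or AGGTGGCGC) they were at CG12730 and klar and in 3.49% of windows. In the 97 strongest peaks other than these sites, the longer words were in 13 of 36 kept (36.1%, exact 95% interval 20.8 to 53.8%) and in 5 of 61 lost (8.20%, interval 2.72 to 18.1%). The 4 shorter words were in 19 of 36 kept (52.8%, interval 35.5 to 69.6%) and in 19 of 61 lost (31.1%, interval 19.9 to 44.3%), with intervals that overlap. The dCTCF word was in 9 of 36 kept (25.0%, interval 12.1 to 42.2%) and in 4 of 61 lost (6.56%, interval 1.82 to 15.9%). CGATA (52.8% of kept, 67.2% of lost) and GAGAG (27.8% of kept, 32.8% of lost) ran the other way. For the dCTCF word, CGATA and GAGAG the intervals of kept and lost overlap. The 4 shorter words and the longer words were chosen after seeing the sites. Windows of other peaks lie outside that choice, but kept and lost is the contrast by which the sites were chosen. The shares are thus a description only, and their cause was not tested. Of the 4, AGGGGGC was at none of the sites, and it was not searched with GC after it. A match in letters is not a bound protein.

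The 3 windows were poor in G and C. They held 40.7% G and C at CG12730, 45.3% at klar and 32.7% at bun, against a median of 56.5% over all CP190 windows of Pita wt, but the median of the 100 strongest was 40.7% too. The bun window also held AAGCAGT or its reverse complement 6 times within 501 bp, 2 on the plus and 4 on the minus strand, and 16.7% of all windows held some word of that length at least as often. Of 46 stretches of 50 bp per window, 44 at CG12730 and all at klar and bun occurred once in the genome.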

How the data were processed

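ChIP-seq peaks of FLAG and CP190 in Pita dCP1+2 and Pita wt embryos were used. The authors trimmed the reads with cutadapt, used Bowtie2 (version 2) for alignment to dm6, retained pairs placed uniquely, and discarded duplicates with Picard. MACS2 called the peaks with 1 preimmune sample as control, and the IDR pipeline, which compares 2 peak sets, gave 1 optimal list per antibody and line. Unique alignment and removal of duplicates can lower the signal of repeats and of the highest peaks. The deposited values are the fold enrichment (a ratio to the preimmune signal), the −log10 p-value (per peak and per compared set) and an IDR score. Which sets were compared, replicates or pseudoreplicates, is not given in the sources used here. The study's reproducibility table shows a more even self-consistency between the replicates of Pita dCP1+2 than between those of Pita wt. For CP190 and FLAG alike, the self-consistency ratio of Pita wt is above the limit stated in the study's methods, and that of Pita dCP1+2 is below it. This limits every comparison of the lines made here. Read depth and coverage tracks were not analysed here.

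Peaks were taken as shared when windows reaching 250 bp either side of their summits overlapped by at least 1 bp. The window is that of the study's methods, and the minimum overlap was chosen here. Intervals are exact Clopper-Pearson intervals over peaks and cover counting error only. The range of a rank difference joins opposite ends of the intervals of the lines and measures no sampling spread. No test between the lines was made, since the lists hold no value per replicate, and p-values of a word match come from the score distribution of the Pita weight matrix given with the study, whose values were read from a page and could hold a misread digit. Genes came from Ensembl release 115 and sequences from the RefSeq copy of dm6, with chromosome ends of the lists within its lengths. Genes are named by the nearest transcription start, and loci most like a site by Euclidean distance of log10 ranks. Since the CG12730 site has no FLAG peak in Pita dCP1+2, its 3 ranks were used in place of 4. The members and lists were chosen with earlier results of these data known. On simulated data, 2000 of 2000 peaks were assigned correctly and 200 of 200 planted words were found. Alternatives were other distances, ranks, windows, overlaps, list lengths and match thresholds. Python 3.11.15, numpy 2.4.6, pandas 2.3.3, scipy 1.17.1 and matplotlib 3.10.9 were used.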

Additional observations from a re-analysis of the deposited data

How the results depend on the processing

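Of 47 alternative values, 32 stayed close to the value reported, 14 moved and 1 changed sign. Shares were held to the counting interval, and counts of peaks or matches to a factor of 1.5. Rank differences were held to a range between opposite ends of the intervals of Pita dCP1+2 and Pita wt. A rank is not a count of independent draws, so that range is no sampling spread. It was wide beside the CP190 rank differences, so staying close says little for them. The CP190 rank difference at klar (0.0109 percentage points, range -0.199 to 0.210) became -0.0366 on the assembled chromosome arms only. There the scaffold peaks ranked above it in Pita dCP1+2 are left out. The share of CP190 peaks of Pita wt kept in Pita dCP1+2 (75.1%) was 78.6% with deposited boundaries, 70.6% with windows of 100 bp, 71.6% with an overlap of at least 50% of the window and 64.2% among the 5000 strongest peaks of each list. The FLAG share (71.6%) was 74.5%, 67.6%, 68.5% and 65.7% in the same order. The FLAG rank difference was 4.93 percentage points at klar and 37.4 at bun by −log10 p-value, where the cause was not tested. Among the 5000 strongest peaks it was 3.90 and 32.4, since the same ranks were divided by a shorter list. The Pita matrix matched 0 sites at p below 1e-05 and 0 at 1e-06, where the stricter threshold itself sets the count. The FLAG rank difference at CG12730 has no value in any setting, because Pita dCP1+2 has no FLAG peak there. No paired analysis was possible because the replicates are merged in each list, and for the same reason no replicate could be left out. Fold enrichments of separate lists were compared as the authors gave them and were not rescaled, and the unknown depth limits every value.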
